A study of Mus musculus with 6 samples.

Results

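The apolipoprotein L family was followed in 6 RNA-seq libraries of mouse sciatic nerve, taken at postnatal day 4. It was represented by 8 genes, *Apol6*, *Apol7a*, *Apol7c*, *Apol8*, *Apol9a*, *Apol9b*, *Apol10a* and *Apol10b*, of 59485 genes in the deposited table. The 8 genes were chosen by their values in these libraries, since *Apol9a* and *Apol9b* showed the largest rises in the mutants, so their differences between the groups are given below as a description without a test. The 3 mutant libraries came from mice carrying Ht-PA-Cre, 2 floxed *Adar1* alleles and the R26R reporter. Their 3 control libraries are given as wild-type in the labels, and the breeding scheme of the study allows controls with floxed *Adar1* and R26R but no Cre. Cre was driven by the human tissue plasminogen activator promoter, which acts in the neural crest, the embryonic source of Schwann cells, and R26R marks the recombined cells with YFP. Blood vessels, immune cells and other cells of the nerve that do not descend from the neural crest keep *Adar1*. A whole nerve is a mixture, so fewer cells of a type and less RNA per cell cannot be told apart in any value below.

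The targeted gene did not follow the label. Values of single libraries are listed in the order of replicates 1, 2 and 3 throughout. *Adar* was at 1602, 2066 and 1133 in the control-labelled libraries and at 11768, 9311 and 9773 in the mutant-labelled ones, as normalised values (read counts scaled between libraries). It was therefore higher in the libraries labelled mutant (log2 fold change 2.72, SE 0.20, limma adjusted p = 4.10e-05), and with 1 value per gene the deleted segment could not be read apart from the remainder of the transcript. The groups are called control-labelled and mutant-labelled for this reason. The libraries held 50938349 to 78250094 assigned reads, a single read was worth 0.727 to 1.27 normalised units, and the labelled tissue carried defining Schwann cell genes (*Sox10*, a transcription factor of the lineage, was at 10920 to 12618 in the control-labelled and at 5838 to 9171 in the mutant-labelled libraries).

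Apolipoprotein L proteins are lipid- and membrane-binding proteins, most of which stay inside the cell, although the founding human member, APOL1, circulates on lipoproteins and kills trypanosomes. In mice the family expanded into a cluster of close copies. Several members are known as interferon-stimulated genes, which carry in their promoters a site for an interferon-activated complex of transcription factors. The products of *Apol9a* and *Apol9b* bind phosphatidylethanolamine and restrict virus replication in cultured cells, that of *Apol7c* acts in dendritic cells, where it opens phagosomes, and human APOL6 has been linked to cell death.

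All 8 genes lay on chromosome 15 of the mm10 assembly, in a span of 712.3 kb that began with *Apol6* (GSMG0013336, 77044729 to 77057108) and ended with *Apol8* (GSMG0014201, 77747799 to 77757010). *Apol7a* (GSMG0014195, 77388217 to 77399112) and *Apol9a* (GSMG0014196, 77403789 to 77411080) were 4.68 kb apart, and *Apol9b* (GSMG0013343, 77729070 to 77736381) lay 318 kb beyond *Apol9a*, on the opposite strand. The other members were *Apol10a* (GSMG0013340, 77477044 to 77491069), *Apol7c* (GSMG0014197, 77524867 to 77533316) and *Apol10b* (GSMG0014199, 77584158 to 77596125).

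The upstream stretches of 7 of the 8 members are shown for 1 feature, a short motif that is known to matter for interferon-stimulated genes. The stretches are 120 bases long, read 5′ to 3′ on the strand of the gene, from RefSeq (GRCm38.p6, the mm10 assembly). Capitals mark matches to the core of the interferon-stimulated response element (ISRE), that is GAAA, any 2 bases and GAAA again, searched on both strands. All matches here were on the strand opposite to the gene and so read as TTTC, 2 bases and TTTC, and where 2 matches overlap they form 1 longer run of capitals. *Apol9a* and *Apol9b*, at chr15:77411081-77411200 on the minus strand and chr15:77728952-77729071 on the plus strand, held the same run:
Apol9a: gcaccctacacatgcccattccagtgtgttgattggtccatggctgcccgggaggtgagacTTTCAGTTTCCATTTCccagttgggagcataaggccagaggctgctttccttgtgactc
Apol9b: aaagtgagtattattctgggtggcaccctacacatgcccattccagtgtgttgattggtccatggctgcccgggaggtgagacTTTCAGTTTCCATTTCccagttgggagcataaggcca
*Apol7c* (chr15:77533316-77533435, minus strand), *Apol10a* (chr15:77476927-77477046, plus strand) and *Apol10b* (chr15:77596115-77596234, minus strand, with the match across the start site) held other letters in the open positions:
Apol7c: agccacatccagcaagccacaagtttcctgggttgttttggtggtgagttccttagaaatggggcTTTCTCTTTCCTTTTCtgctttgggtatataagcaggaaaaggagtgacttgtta
Apol10a: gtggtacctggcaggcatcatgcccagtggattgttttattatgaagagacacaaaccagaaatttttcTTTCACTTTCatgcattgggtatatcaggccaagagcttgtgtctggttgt
Apol10b: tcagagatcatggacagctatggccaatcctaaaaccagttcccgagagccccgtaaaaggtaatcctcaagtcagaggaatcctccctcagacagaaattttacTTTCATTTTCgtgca
*Apol7a* (chr15:77399111-77399230, minus strand) and *Apol8* (chr15:77757011-77757130, minus strand) held no match:
Apol7a: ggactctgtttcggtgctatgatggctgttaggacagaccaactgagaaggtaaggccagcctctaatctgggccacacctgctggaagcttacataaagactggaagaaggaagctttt
Apol8: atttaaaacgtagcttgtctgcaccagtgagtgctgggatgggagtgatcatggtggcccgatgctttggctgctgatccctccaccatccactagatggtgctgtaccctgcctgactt

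Matches were searched in the promoter window of each member, from 250 bases before to 50 bases after a start site, of which the stretches show a part. The ISRE core was present in 3.44% of all 32851 RefSeq promoter windows of that length. In *Apol9a* the 2 overlapping matches spanned positions -59 to -44 from the start site, which is position 0, and in *Apol9b* positions -37 to -22. The 2 genes also had a further annotated start site each, for which the same letters lay at -105 to -90 and at -86 to -71. Over 228 aligned bases upstream of the start sites, *Apol9a* and *Apol9b* were identical. The core of the gamma-activated site (GAS), TTCNNNGAA, was present in 8.30% of all windows and, among the members, in that of *Apol10a* at -241 to -233. A match is a string of letters and not a measured binding site, and *Apol6* had no entry in the promoter table.

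**Figure D1:**
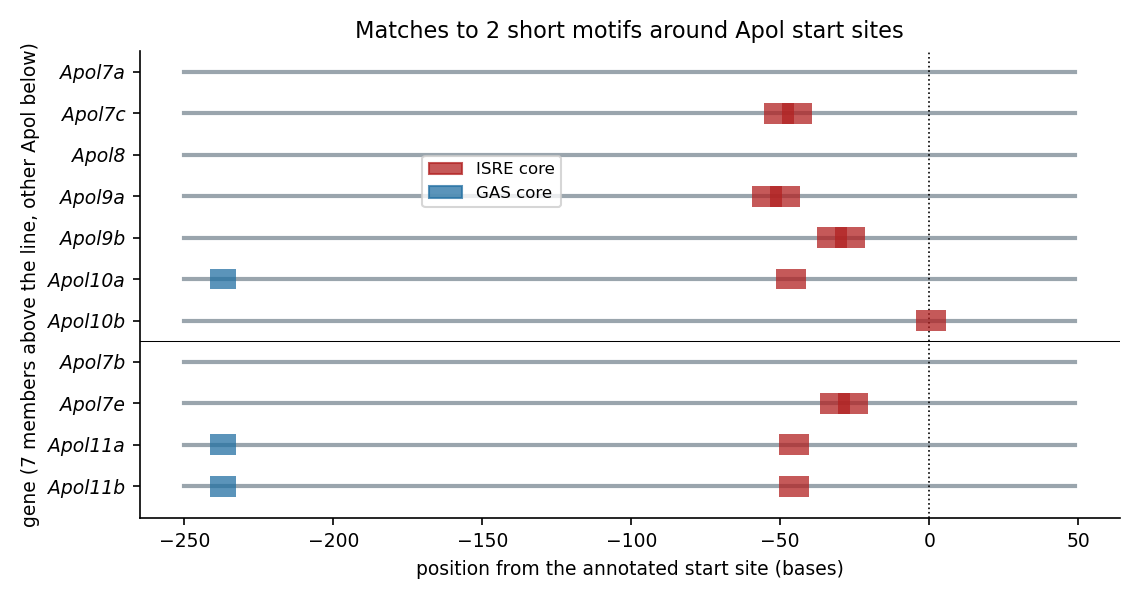
Matches to the ISRE core (red) and the GAS core (blue) in the promoter window (grey line) around the annotated start site nearest to the edge of each gene, with the position from the start site in bases on the x axis, the members above the black line and other Apol genes below it. The red matches of *Apol9a*, *Apol9b*, *Apol7c*, *Apol10a*, *Apol7e*, *Apol11a* and *Apol11b* lie between 59 and 21 bases upstream of the start site, that of *Apol10b* crosses it, and *Apol7a*, *Apol8* and *Apol7b* have none.

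*Apol9b* had the highest level of the family in the mutant-labelled libraries and the largest log2 fold change of all 25802 genes tested by limma. The rank was 22 by edgeR and 15 by DESeq2 on the reads. By limma it was 3 with 0.1 in place of 1 added before the logarithm, and 2 without control replicate 1 or mutant replicate 1. The family was chosen for this rise, so the rank restates the choice. The normalised values of *Apol9b* were 0, 61.4 and 2.53 in the control-labelled libraries and 20816, 17124 and 17602 in the mutant-labelled ones. The mutant-labelled values lay within 1.22-fold of each other, whereas the control-labelled values rested on 0, 65 and 2 reads. The group means were 21.3 ± 34.8 and 18514 ± 2008 (SD, n = 3 each), a ratio of 868. On the log2(value + 1) scale the difference was 11.58 (SE 1.23), and it was 13.26 without control replicate 2 and 10.28 without control replicate 1, because the control mean depended on the library with 65 reads and on the library with none.

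*Apol9a*, its near-identical copy, had no read in any control-labelled library. It reached 1553, 1205 and 1404 in the mutant-labelled ones, from 2135, 1249 and 1420 reads. A floor of 3 reads per library corresponds to 2.83 to 3.80 normalised units in the control-labelled libraries, and against that floor *Apol9a* was at least 418-fold higher in the mutant-labelled libraries. Intervals and floors cover counting error only, and the floor is one of reads, of which a pair can give more than one. The fitted log2 difference of such a gene depends on the constant added before the logarithm and is not used as its size.

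*Apol9a* made up a small part of the reads of the pair. Its share of the *Apol9a* and *Apol9b* reads was 6.94% (95% Wilson interval 6.55% to 7.36%) in mutant replicate 1. The intervals were taken on read pairs, counting every 2 reads as 1 pair, because both mates were counted. The share was 6.57% (6.09% to 7.09%) in mutant replicate 2 and 7.39% (6.88% to 7.93%) in mutant replicate 3. The 3 intervals overlapped. In control replicate 2, with 65 reads of the pair, the share was 0% (up to 10.6%).

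The split of reads between the 2 copies is uncertain. Their coding sequences, 930 bases each, matched at 916 bases (98.5%), more closely than any other pair of members. Of all 130-base windows of the *Apol9a* transcript, 33.4% occurred letter for letter in *Apol9b*, and 27.6% of the *Apol9b* windows occurred in *Apol9a* (GENCODE M21 transcripts, 130 bases being the length of a read). The sum of both genes does not depend on the split: it was 0, 61.4 and 2.53 in the control-labelled and 22369, 18329 and 19006 in the mutant-labelled libraries. The log2 difference of this sum was 11.68. It was 13.36 without control replicate 2 and 10.38 without control replicate 1, and on the reads it was 9.75 by edgeR and 9.86 by DESeq2. How reads that fit both copies equally were treated is not given in the sources used here, so both genes may lack such reads. By contrast, *Apol6*, *Apol8* and *Apol10b* shared no 130-base window with any other annotated gene, *Apol7a* 0.796% and *Apol7c* 1.55% of theirs, and *Apol10a* 0.379%.

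*Apol10b* was at 33.3, 54.8 and 17.7 in the control-labelled libraries and at 1106, 710 and 695 in the mutant-labelled ones. The lowest mutant-labelled value was thus well above the highest control-labelled value, and both groups were read in every library (14 to 58 and 703 to 1520 reads). The log2 difference was 4.63 (SE 0.41), and the ratio of the means, 837 ± 233 and 35.3 ± 18.6, was 23.7.

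*Apol6*, which stands apart from the cluster by 331 kb, was at 22.2, 60.5 and 8.87 in the control-labelled libraries and at 251, 456 and 391.7 in the mutant-labelled ones. The groups did not overlap, and the log2 difference was 3.88 (SE 0.62). Control replicate 2 was the highest control library for *Apol6*, as for *Apol9b* and *Apol10b*. Without it the difference was 4.56, and without control replicate 3 it was 3.24. The 5′ end of *Apol6* overlaps *Mb*, the myoglobin gene, on the other strand, and the libraries kept strand but the counting was not stated to use it. *Mb* was at 252, 133 and 729 in the mutant-labelled libraries. The part of *Mb* reads in the *Apol6* values was not tested.

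*Apol7a* was all but unread in the control-labelled libraries, with values of 8.88, 0 and 0 (8 reads in control replicate 1). Its values in the mutant-labelled ones were 138, 106 and 89.0, from 190, 110 and 90 reads. The groups did not overlap, and the log2 difference was 5.68 (SE 0.95). It was 6.79 without control replicate 1, the only control library with a read.

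The 3 remaining members were low, and their groups overlapped. *Apol8* was at 19.99, 65.2 and 84.9 in the control-labelled and at 45.1, 52.1 and 116 in the mutant-labelled libraries. Its log2 difference was 0.42 (SE 0.62) and became -0.20 without control replicate 1, so that no direction can be given for it. *Apol7c* was at 0, 13.2 and 0 in the control-labelled and at 16.7, 20.3 and 1.98 in the mutant-labelled libraries, which is at most 23 reads in a library, and its log2 difference was 2.10 (SE 1.34). *Apol10a* had 10 reads in mutant replicate 2 and none in the other 5 libraries, and was the one member that did not pass the filter on low values (a mean of at least 10 in either group).

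In all, 5 of the 8 members had every mutant-labelled value above every control-labelled value, beside 25.9% of the 25802 genes tested. The members were selected on this contrast, and nothing is read from the count.

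**Figure D2:**
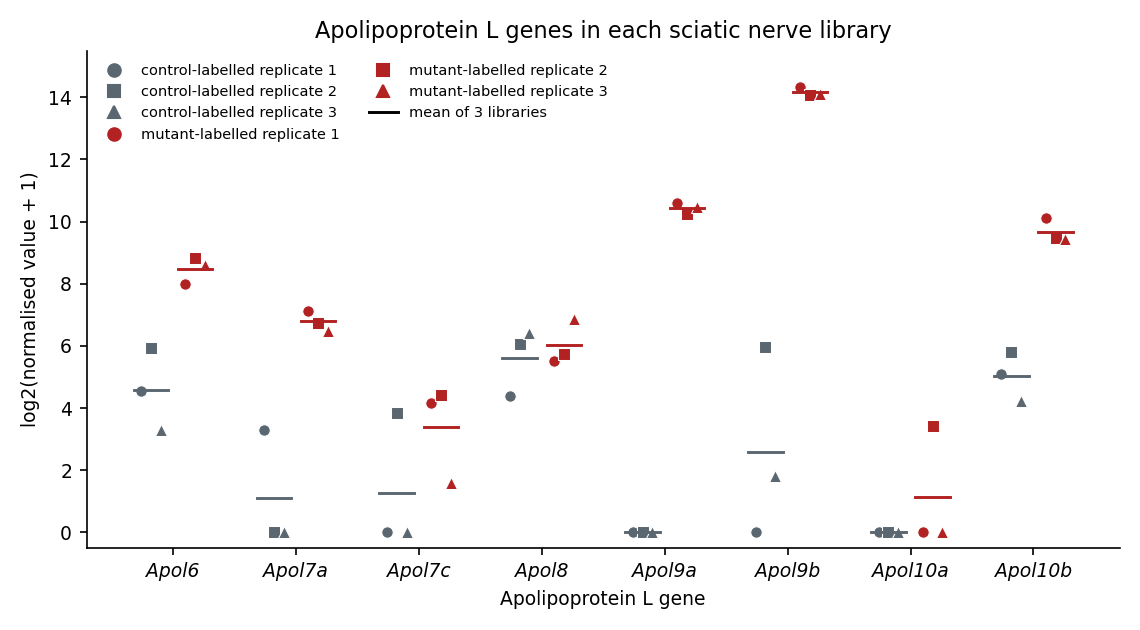
Each point is 1 library, with the gene on the x axis and log2(normalised value + 1) on the y axis. Grey points are the 3 control-labelled and red points the 3 mutant-labelled libraries, the shape gives the replicate, and the bars are the means of the 3 log2 values. *Apol9a* is at 0 in all 3 control-labelled libraries, *Apol9b* stands highest in the mutant-labelled libraries, and the points of *Apol7c*, *Apol8* and *Apol10a* overlap between the groups.

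Levels of different genes were set side by side per kilobase of the transcript with the longest coding part. The counted constitutive regions are not given by length, so these levels depend on the length chosen. In the mutant-labelled libraries the order was *Apol9b* (11770 ± 1276 per kb), *Apol9a* (907 ± 114), *Apol10b* (360 ± 100), *Apol6* (180 ± 51.6), *Apol7a* (46.5 ± 10.4), *Apol8* (25.3 ± 13.9), *Apol7c* (6.31 ± 4.71) and *Apol10a* (1.06 ± 1.84). The first 4 were each above the next gene in every library, *Apol7a* and *Apol8* did not differ beyond their spread, *Apol8* was above *Apol7c* in every library, and the spreads overlapped for *Apol7c* and *Apol10a*. Per kilobase of the union of all annotated exons, a length tried after the data were seen, *Apol9b* remained first (10167 ± 1103 per kb) but *Apol10b* (360 ± 100) stood above *Apol9a* (233 ± 29.3) in every mutant-labelled library. The union is 5953 bases for *Apol9a*, against 1530 bases of the transcript, and 2325 bases by both measures for *Apol10b*, so no order can be given for these 2 members. In the control-labelled libraries, per kilobase of the transcript, the order was headed by *Apol8* (20.2 ± 11.9 per kb), *Apol10b* (15.2 ± 8.004), *Apol6* (15.0 ± 13.2) and *Apol9b* (13.6 ± 22.1), and each gene overlapped the next. *Apol8*, first in the control-labelled libraries, was thus sixth in the mutant-labelled ones, by both lengths.

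The pair dominated the output of the family. The 8 members together took 0.000137%, 0.000393% and 0.000177% of all assigned reads in the control-labelled libraries and 0.0420%, 0.0345% and 0.0360% in the mutant-labelled ones. *Apol9a* and *Apol9b* made up 93.1% to 93.6% of these reads in the mutant-labelled libraries. In the control-labelled libraries they made up 0%, 24.1% and 2.22%, so that most family reads came there from *Apol6*, *Apol8* and *Apol10b*.

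Apart from *Apold1*, no Apol gene outside the 8 exceeded 117 in any library. *Apol7e* was at 17.8, 1.89 and 5.07 in the control-labelled and at 117, 50.2 and 26.7 in the mutant-labelled libraries, without overlap, but 50.9% of its 130-base windows were shared, nearly all with *Apol7b* (98.9% coding identity). *Apol7b* had no read in the control-labelled libraries and was at 26.2, 0 and 12.9 in the mutant-labelled ones. *Apol11b* was at 0 to 18.2 with overlapping groups, and *Apol11a* was at 0 in all 6 libraries. The 250 upstream bases of *Apol11a* and *Apol11b*, with an ISRE match each, were identical. The row named *Apol7d* on chromosome 1 (25.5, 31.2 and 10.1 against 37.1, 41.5 and 15.8) is annotated as antisense to the fibronectin gene *Fn1*, whose reads could not be told apart from it without strand. *Apold1*, the endothelial gene with an apolipoprotein L domain, on chromosome 6, was at 650, 442 and 585 in the control-labelled and at 984, 1362 and 1256 in the mutant-labelled libraries, without overlap.

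The genes around the family were examined next. Within 1 Mb of the span, 75 other genes had a symbol, and 66 of these were tested. Called higher (at least 2-fold with an unadjusted limma p of at most 0.05) were 8, or 12.1%, where 13.9% of all genes tested were called higher. Called lower were 4, where 10.4% of all genes were. The median log2 difference of the neighbours was -0.05, beside 0.03 over all genes tested, so the counts of 2-fold changes around the family were near the background. At an unadjusted limma p under 0.05 whatever the fold, 15 neighbours were higher and 19 lower, where 24.2% and 20.8% of all genes tested were.

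The nearest flanks differed among themselves. *Myh9*, the nonmuscle myosin gene next to *Apol8*, was at 42409, 43026 and 41902 in the control-labelled and at 50750, 43450 and 41396 in the mutant-labelled libraries, a log2 difference of 0.09 (SE 0.10, limma adjusted p = 0.535). *Rbfox2*, a splicing regulator between *Apol6* and *Apol7a*, rose by 1.21 (SE 0.16, adjusted p = 0.00072). *Mb* differed by 2.78 (SE 1.08, adjusted p = 0.0778) and *Pvalb*, a calcium buffer of fast muscle, by 2.59 (SE 0.75, adjusted p = 0.0279). Both moved with skeletal muscle markers, of which 5 of 6 were called higher, where 13.9% of all genes tested were. The summed values of these markers were 5633 to 30089 in the control-labelled and 37480 to 283651 in the mutant-labelled libraries. The part of muscle tissue in the values of *Mb* and *Pvalb* was not tested.

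The other neighbours that were called were genes of the immune system, of metabolism and of varied function. *Il2rb*, a receptor chain for interleukins 2 and 15, rose from 25.4 ± 1.02 to 184.2 ± 27.2 (log2 difference 2.80, adjusted p = 0.000377). *Csf2rb*, the shared receptor chain for GM-CSF and related cytokines, rose by 2.14 (adjusted p = 8.93e-05), and its relative *Csf2rb2* by 1.70 (adjusted p = 0.00289). *Foxh1*, a forkhead transcription factor, had the largest difference among the neighbours, 5.25 (SE 0.74, adjusted p = 0.000966), from 1.79 ± 1.56 to 93.6 ± 29.8, and the row *Eppk1*/*BC024139* rose by 1.30 (adjusted p = 0.0128). *Kifc2*, a neuronal kinesin, had the smallest value at -2.59 (adjusted p = 0.000134), and *Smpd5* (-1.85, adjusted p = 0.00463), *Nrbp2* (-1.62, adjusted p = 0.000865) and *Mpst* (-1.09, adjusted p = 0.000987) also fell. Among the 12 rows without a symbol inside the span, 8 were tested and 2 of them were called higher, where 13.9% of all genes tested were. These were GSMG0013341 and GSMG0013344, each with no read in the control-labelled libraries and at most 38.6 in the mutant-labelled ones. Both passed the filter only through the mutant-labelled libraries and could be called in no other direction, so nothing is read from the count.

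**Figure D3:**
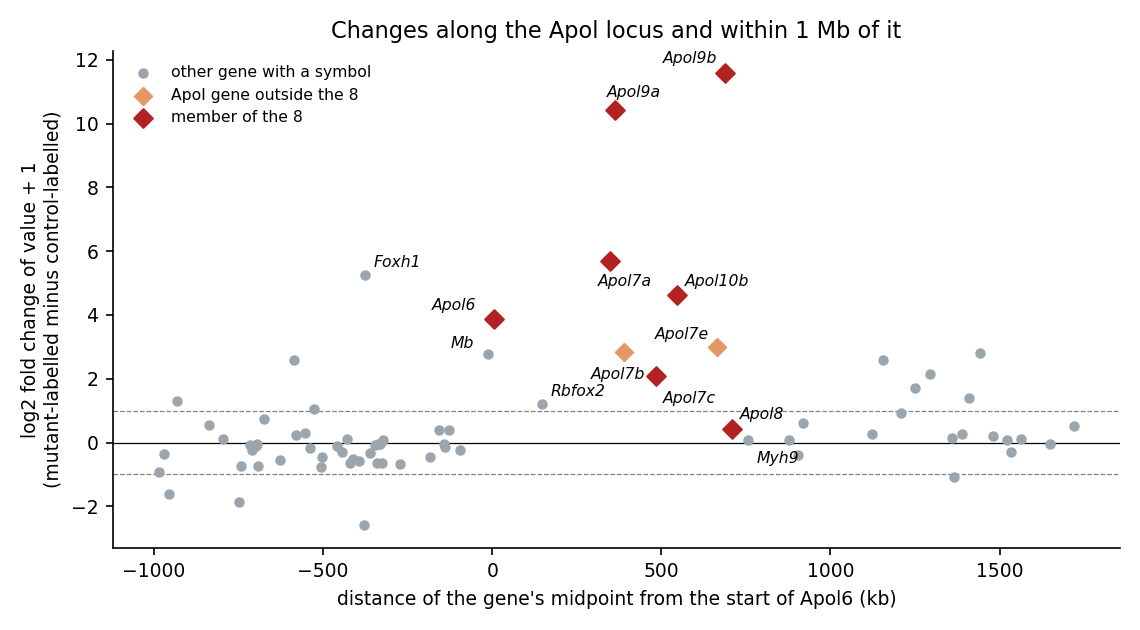
Each point is a gene with a symbol that passed the filter, with the distance of its midpoint from the start of *Apol6* in kb on the x axis and the log2 fold change of value + 1, mutant-labelled minus control-labelled, on the y axis. Red diamonds are members, orange diamonds other Apol genes, grey circles the 66 tested neighbours, and dashed lines mark a 2-fold change. *Apol9a* and *Apol9b* stand above all others, the height of *Apol9a* depending on the added constant of 1, while *Apol8* at the end of the cluster and *Myh9* beyond it lie near 0.

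Genes that pass on the interferon signal were examined beside the family, since the known inducer of *Apol9a* and *Apol9b* is interferon. Of 17 listed genes, all tested, 9 were called higher and none lower (13.9% and 10.4% of all genes tested). At an unadjusted limma p under 0.05 whatever the fold, 13 were higher and 2 lower, where 24.2% and 20.8% of all genes tested were. By edgeR and by DESeq2, 9 were called. The median log2 difference of the list was 2.50, beside 0.03 over all genes. Among the ligands, *Ifnb1* (interferon beta) had no read in the control-labelled libraries and was at 466, 408 and 507 in the mutant-labelled ones (limma adjusted p = 1.11e-05). *Ifng* (interferon gamma) also had no control read and stayed low, at 7.27, 28.9 and 11.9 (adjusted p = 0.0130).

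Transcription factors of the pathway were among the genes that rose. *Stat2* (log2 difference 2.98, SE 0.26, adjusted p = 7.67e-05) and *Irf9* (2.94, SE 0.26, adjusted p = 8.82e-05) belong to the complex that binds the ISRE. *Irf7*, itself interferon-stimulated, rose from 881 ± 935 to 81990 ± 15216 (7.12, SE 0.67, adjusted p = 0.000115) and *Irf1* by 2.75 (SE 0.51, adjusted p = 0.00376). The inhibitors *Usp18* (6.18, SE 0.39, adjusted p = 1.85e-05) and *Socs1* (2.50, SE 0.24, adjusted p = 0.000138) also rose. The other 8 genes, receptors and kinases such as *Ifnar1* and *Jak1* together with *Irf3*, were not called. The smallest value of the list was that of the kinase *Tyk2*, -0.57 (SE 0.14, adjusted p = 0.0144), which was short of 2-fold.

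The order of the libraries within the groups was compared between both sets of genes. Control replicate 2 was the highest control library for all 7 of the called interferon genes with a control read, such as *Irf7* (492, 1947 and 204). It was also the highest control library for 4 of the 6 members with a control read, *Apol6*, *Apol7c*, *Apol9b* and *Apol10b*. Mutant replicate 1 was the highest mutant library for 6 of all 9 called interferon genes and for 4 of all 8 members, *Apol7a*, *Apol9a*, *Apol9b* and *Apol10b*. With 3 libraries a group these orders are a description, and the share of all genes with the same highest library was not counted. In control replicate 2, *Apol7c* had 14 reads and *Apol9b* 65. Nothing is read from these counts.

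**Figure D4:**
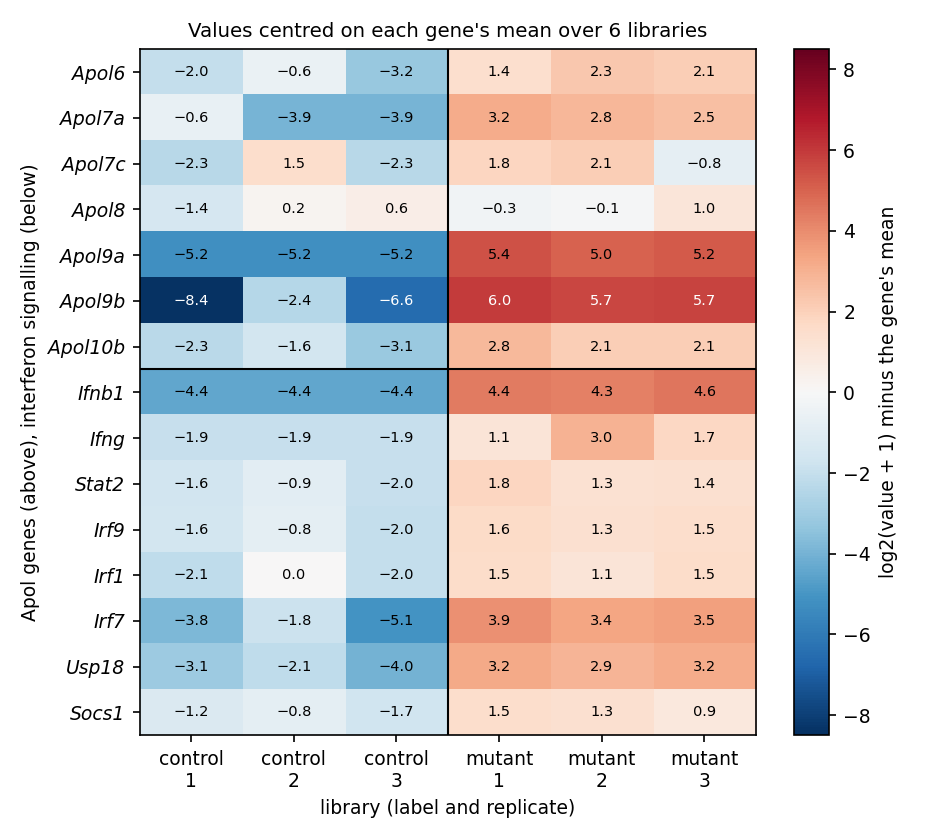
Heat map of log2(value + 1) minus the mean of each gene over the 6 libraries (colour and printed number), with libraries on the x axis and genes on the y axis: the 7 members that passed the filter above the black line and 8 called interferon signalling genes below it. Control replicate 2 is less negative than the other control-labelled libraries for *Apol6*, *Apol9b*, *Apol10b*, *Stat2*, *Irf7* and *Usp18*, and *Apol8* has no block of high values in the mutant-labelled libraries.

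For each member that passed the filter, the genes with the most similar pattern were found as those with the smallest mean absolute difference, over the 6 libraries, of these centred log2 values, among 16648 genes with a symbol. The distance includes the difference between the groups, on which the family was selected. For members with a large difference it largely restates that difference. For *Apol10b* the nearest were *H2-D1*, a classical MHC class I gene (0.161), *Lgals3bp* (0.170), *Ddx58*, the RNA sensor RIG-I (0.193), *Ifi203* (0.198) and *Bst2*, tetherin (0.211). Their log2 differences were 4.29 to 4.75, beside 4.63 for *Apol10b*. For *Apol9b*, whose rise few genes matched, they were the chemokine *Ccl5* (1.15), *Cacng3* (1.20), *Apol9a* (1.50), the row *H2-Q6*/*H2-Q8* (1.68) and *Ifit3b* (1.76). No genes are named for *Apol9a*, because its control-labelled values are all 0 and its centred pattern is set by the added constant: 1 of its 5 nearest genes was kept with a constant of 0.1 and 1 with 10.

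*Apol6* was closest to *Lrrc18* (0.172), *Ifi27l2a* (0.212), *Bdkrb1* (0.221), *Ralyl* (0.244) and *Srrm3* (0.255), and *Apol7a* to *4930486F22Rik* (0.189), *Hfm1* (0.293), *Ptger2* (0.314), *Ptchd2* (0.326) and *Cdhr5* (0.326). *Apol7c* was closest to *Gm10364* (0.302), *Mei4* (0.329), *Mesp1* (0.448), *Ankrd34b* (0.505) and *Rbp2* (0.506), and *Apol8* to *Snord73a* (0.117), *Crip3* (0.217), *Gm15694* (0.237), *C030023E24Rik* (0.261) and *Gm20036* (0.289). A control-labelled mean under 10 was held by all 5 genes nearest to *Apol7a*, all 5 nearest to *Apol7c*, 4 of 5 nearest to *Apol6* and 2 of 5 nearest to *Apol9b*, so these patterns rest on few reads. The lists also depended on the constant added before the logarithm, which was varied after the data were seen. With 0.1 in place of 1, all 5 genes were kept for *Apol10b*, 4 each for *Apol7a*, *Apol7c* and *Apol8*, and 2 each for *Apol6* and *Apol9b*. With 10, 4 were kept for *Apol8*, 3 for *Apol9b*, 2 for *Apol10b* and 1 each for *Apol6*, *Apol7a* and *Apol7c*.

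The other apolipoproteins, which carry lipid in plasma and tissue, and their partners went both ways. Of 19 rows 14 were tested, 4 were called higher and 1 lower (13.9% and 10.4% of all genes tested), with a median log2 difference of 1.22. *Apod*, a lipocalin of nerve and injured tissue, rose from 13090 ± 2193 to 114231 ± 8834 (log2 difference 3.14, limma adjusted p = 2.93e-06). *Apobr*, a receptor for apolipoprotein B, rose by 2.89 (adjusted p = 1.08e-05) and *Clu*, clusterin, by 2.32 (adjusted p = 0.000757). The row of *Apoc2* and *Apoc4* differed by 1.21 (adjusted p = 0.0836). *Apoe*, the main lipid carrier of glia and macrophages, fell by 1.08 on the log2 scale (adjusted p = 0.000992), from 38049 ± 2233 to 18325 ± 3813. The smallest value was that of *Apob*, -2.08 (SE 1.33, adjusted p = 0.260).

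Enzymes of phospholipid synthesis around phosphatidylethanolamine, the lipid bound by the *Apol9* products, were examined as well. Not all of them make this lipid. The list also held *Pemt*, which methylates it, the phosphatidylserine synthases *Ptdss1* and *Ptdss2*, and choline kinases. The row of *Chkb* also held *Cpt1b*. Of 11 rows, none was called higher and 2 were called lower by limma (13.9% and 10.4% of all genes tested). The count of lower genes at the 2-fold limit was thus near the background, and edgeR and DESeq2 each called 2 in all. The median log2 difference was -0.69, beside 0.03 over all genes. At an unadjusted limma p under 0.05 whatever the fold, 2 were higher and 7 lower, where 24.2% and 20.8% of all genes tested were. *Pcyt2*, the rate-limiting enzyme of the ethanolamine pathway, fell from 12903 ± 859 to 1536 ± 279 (log2 difference -3.08, SE 0.13, adjusted p = 3.54e-06). *Etnk2*, an ethanolamine kinase, differed by -1.46 (SE 0.50, adjusted p = 0.0515), and the count was 1 without control replicate 2, control replicate 3 or mutant replicate 3. The largest value was that of *Etnk1*, a second ethanolamine kinase, 0.85 (SE 0.23, adjusted p = 0.0206). Schwann cell markers moved with this list: 4 of 7 listed markers were called lower, where 10.4% of all genes tested were. At an unadjusted limma p under 0.05 whatever the fold, 6 were lower and 0 higher (20.8% and 24.2% of all genes tested). The summed values of the 6 markers whose levels are reported here were 77303 to 81986 in the control-labelled and 25444 to 36923 in the mutant-labelled libraries. The part of the Schwann cell change in the lipid enzymes was not tested.

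Markers of immune cells, in which Apol genes are also known to be active, moved in different directions. Over all genes tested, 13.9% were called higher and 10.4% lower. At an unadjusted limma p under 0.05 whatever the fold, 24.2% of all genes tested were higher and 20.8% lower. For macrophages 4 of 10 markers fell and 1 (*Ptprc*, common to all leukocytes) rose, while 4 were lower and 3 higher at an unadjusted limma p under 0.05 whatever the fold. The macrophage list had summed values of 18670 to 23134 in the control-labelled and 15883 to 19088 in the mutant-labelled libraries. For T and NK cells 5 of 7 tested markers rose, the sums being 112 to 217 and 417 to 570. *Ncr1*, a marker of NK cells, was at 0 in all control-labelled libraries and at 50.9, 75.3 and 37.6 in the mutant-labelled ones. For dendritic cells 3 of 8 markers were tested, and *Batf3* (log2 difference 3.14) and *Itgax* (2.63) rose, whereas *Zbtb46* differed by -0.06. *Xcr1*, *Clec9a*, *Flt3* and *Ccr7* stayed under 20 in every library and *Cd209a* was at 0 in the mutant-labelled ones. Sums of the dendritic cell list were 607 to 716 and 1554 to 1739. The part of immune cells in the Apol values was not tested.

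No endothelial (8 tested) or adipocyte (4 tested) marker was called by limma. At an unadjusted limma p under 0.05 whatever the fold, 4 endothelial and 0 adipocyte markers were higher, where 24.2% of all genes tested were. Called lower were 1 of 5 perineurial and 2 of 6 fibroblast markers, where 10.4% of all genes tested were. By the same unadjusted p whatever the fold, 2 perineurial and 3 fibroblast markers were lower (20.8% of all genes tested), and 1 of each of these 2 lists was higher. The endothelial sums were 18614 to 27456 in the control-labelled and 27573 to 36741 in the mutant-labelled libraries, and the adipocyte sums ranged from 18.8 to 9425 without order by group.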

How the data were processed

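Total RNA of sciatic nerve was made into oriented poly-A libraries (paired 130-base reads). The authors mapped reads with STAR 2.4.0 to mm10, counted those on constitutive regions of FAST DB genes and divided by DESeq2 size factors. The deposited values are this scaled count signal. Low values were whole multiples (tolerance 0.1 read) of the value of 1 read in 100% of cells, which gave the reads. Odd counts made up 23.8% to 25.1% of counts from 1 to 20, so mates were counted singly. Genes with a mean of at least 10 in either group were compared with limma 3.58.1 on log2(value + 1), with Benjamini-Hochberg adjustment over all genes. p-values measure the spread between these libraries. Members and lists were chosen with earlier results of these data known. Named genes were all Apol genes, the called and the extreme genes of each list, and the 5 nearest patterns (not given for *Apol9a*). edgeR 4.0.16 and DESeq2 1.42.0 on recovered reads, other constants, filters and scalings, and leaving out each library were the alternatives. Sequences were taken from RefSeq, transcripts from GENCODE M21. Some listed genes are not reported here. Scripts were tested on simulated data.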

Additional observations from a re-analysis of the deposited data

How the results depend on the processing

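Of 108 counts of calls under the alternatives, 104 stayed within 1.5 times the reported count. The count of the phosphatidylethanolamine list was 1 with adjusted p-values and ranged from 1 to 3 when each library was left out. Over the same fits the interferon signalling count was 8 to 9, the neighbour count 11 to 14 and the count of other apolipoproteins 4 to 6. Scaling every library to the same total moved the median of all genes to 0.193, and under all 3 other scalings the separated members stayed high, *Apol6* between 3.82 and 4.04. The log2 difference of *Apol7a* was 7.93 with a constant of 0.1 and 3.27 with 10, that of *Apol7c* 4.13 with 0.1 and 0.69 with 10, and that of *Apol9a* 13.75 and 7.12, with 13.48 by edgeR and 12.74 by DESeq2, since its controls hold no reads. *Apol9b* was 9.65 by edgeR and 9.76 by DESeq2. The replicate numbers do not pair the libraries (correlations -0.062, -0.055 and 0.009). A fit with the replicate number as a block called 6149 genes against 6251 and 2 of the phosphatidylethanolamine list. *Apol10a* has no fitted value because it fails the filter, as *Apol7c* does without mutant replicate 2.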
